A study of Canis lupus familiaris with 9 samples.

Results

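The genes described here make the machinery that starts and extends protein chains and that loads transfer RNA (tRNA) with amino acids. They were chosen by symbol alone: EIF or EEF followed by a number, a single letter followed by ARS or ARS2, or EPRS, FARSA or FARSB. This rule found 89 rows of the 28008 features in the deposited files, with 48 named for eukaryotic initiation factors (EIF), 7 for elongation factors (EEF) and 34 for aminoacyl-tRNA synthetases (ARS). The EIF and EEF names also cover kinases, binding proteins and other enzymes that act on the factors. The 89 rows carried 88 symbols, because EIF4E2 had 2 rows. A normalised read count of at least 10 in at least 3 libraries was needed for a test, and 85 rows reached it. EEF1B2, EIF4E1B and both EIF4E2 rows did not. Among well-known genes of these families, EIF2S3, EIF3C, EIF3F, EIF5A, EIF6, EEF1A2, EEF1G, NARS2, PARS2 and SARS2 had no row under these symbols and were not analysed here.

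Translation begins when eIF2 brings the initiator tRNA to the small ribosomal subunit, while eIF4E, eIF4G and eIF4A load that subunit onto the capped messenger RNA with the help of eIF3. eIF2B recharges eIF2 with GTP, and stress kinases halt the cycle by phosphorylating the alpha subunit of eIF2. EEF1A then delivers charged tRNA to the ribosome, EEF2 moves the ribosome along the message, and each synthetase joins 1 amino acid to its tRNA, with separate enzymes for the cytosol and the mitochondrion in most cases. T cells raise this machinery when they are activated and begin to divide.

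The study set CD4+ peripheral T-cell lymphoma (PTCL), a cancer of mature T cells, against normal CD4+ T cells of the dog, in 9 RNA sequencing libraries. The Boxer lymphomas came from a castrated male aged 6 years, a spayed female aged 8 years and a castrated male aged 6 years (Boxer lymphomas 1 to 3). The other-breed lymphomas came from a spayed Cavalier King Charles Spaniel aged 3 years, a spayed Rhodesian Ridgeback aged 4 years and a castrated Collie aged 11 years (other-breed lymphomas 1 to 3). The 3 controls were CD4+ T cells sorted from healthy female hounds aged 1 year that had not been neutered. Disease therefore cannot be told apart from breed, age, neutering and, in part, sex. The labels call the lymphoma samples T-cell lymphoma cells and give neither their tissue nor any sorting. A part of sorting or tissue therefore cannot be told apart from disease either. Separate dogs are not stated for the controls or for Boxer lymphomas 1 and 3, and every p-value below rests on the spread between samples, which may be technical there.

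The libraries held 11710623 to 18488468 reads, and the deposited values are normalised reads, that is reads divided by a size factor for each library. The 9 T cell markers with a row together had 53012 to 94541 normalised reads in lymphomas and 77620 to 79186 in controls. Single markers differed: CD5 had 265 in Boxer lymphoma 2, 3546 to 4320 in the other lymphomas and 10272 to 10649 in controls. CD8A, which marks cytotoxic T cells, had 1089 in other-breed lymphoma 1, 5.95 to 70.0 in the other lymphomas and 13.9 to 33.8 in controls. CD4 itself was not analysed here, so the CD4+ label was not checked by its own gene. The sum of 10 macrophage markers was 920 to 21280 in lymphomas and 130 to 201 in controls. For 10 fibroblast markers it was 198 to 19230 in lymphomas and 28.9 to 130 in controls, and LUM and MMP2 among them were at 0 in all controls. The 6 endothelial markers gave 94.2 to 6244 in lymphomas and 306 to 691 in controls. Most of the control sum was KDR (626, 298 and 262), which fell to 49.4 and 27.6 for other-breed lymphomas 1 and 2. PECAM1 was also low there (28.2 and 30.0, controls 32.4 to 44.6). CDH5 and ESAM never exceeded 0.826 among controls and were higher in every lymphoma (from 1.18 and 4.71). This sum therefore cannot rank the libraries by endothelial cells. The 9 B and plasma cell markers gave 1905 to 7340 (lymphomas) and 2488 to 2735 (controls). MS4A1 alone had 5123 of the 7340 in other-breed lymphoma 1, and JCHAIN had 5205 of 7170 in Boxer lymphoma 2. JCHAIN was above the controls in every lymphoma (906 to 5205, controls 692 to 869). CD79B was below them in every lymphoma (15.8 to 169, controls 172 to 176). The B and plasma cell sum therefore cannot rank the libraries by these cells. The sums for 5 neutrophil markers were 104 to 412 in lymphomas and 17.3 to 32.4 in controls. For 5 dendritic cell markers they were 107 to 443 in lymphomas and 36.3 to 63.9 in controls. The 7 muscle and neuron markers summed to 92.0 to 1076 in lymphomas and at most 20.5 in controls. Of these, MAPT alone had 29.4 to 1032 in lymphomas and 4.13 to 6.82 in controls. DES had 0 to 136 in lymphomas and at most 2.78 in controls. SNAP25 went the other way, with at most 0.948 in lymphomas and 0.826 to 4.09 in controls. For 6 cytotoxic cell markers the sums were 116 to 1298 in lymphomas, the highest in other-breed lymphoma 1, and 116 to 227 in controls. ELANE (neutrophil), GZMA (cytotoxic), CKM and ACTA1 (muscle) were at 0 in all controls. In lymphomas they had at most 5.89, 63.7, 6.31 and 7.29, in that order. The 7 cell division genes gave 16624 to 45837 in lymphomas and 3030 to 3436 in controls. The part of these other cells and of division in the results below was not tested, and in bulk RNA a smaller number of cells of a type and less RNA per cell cannot be told apart.

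The first comparison asked how this machinery differs between lymphomas and normal CD4+ T cells. Cytosolic synthetases made up 11 of the 25 members that were higher in lymphomas, initiation factors were called in both directions, and EEF1A1, the elongation factor with the most reads, was lower. With limma on log2(normalised reads + 1) and a Benjamini-Hochberg adjusted p under 0.05 over all genes, 25 of the 85 members rose (29.4%) and 11 fell (12.9%). Among all 15977 genes tested, 19.4% rose and 15.7% fell, so the members' share of lower calls was close to the background. The median log2 fold change was 0.17 over the members and 0.05 over all genes. In 21 members every lymphoma lay above every control, and in 13 every lymphoma lay below, against 18.5% and 17.2% of all genes. Of 20 cytosolic synthetases 11 rose and 1 fell, and of 14 mitochondrial synthetases 1 rose and 2 fell. Of 45 EIF rows, which include 4 eIF2 kinases and 4 eIF4E-binding proteins, 11 rose and 6 fell. Of the elongation factors EEF1A1 and EEF1D fell and EEF2 did not pass, the readthrough row EEF1E1-BLOC1S5 rose, and of 2 enzymes that modify elongation factors 1 rose. Without control 1, 2 or 3 the numbers that rose were 15, 13 and 14 and those that fell were 5, 3 and 4, and without Boxer lymphoma 1 the number that fell was 7. Without other-breed lymphoma 1, the library with high CD8A, 21 rose and 11 fell, and without Boxer lymphoma 2, the library with low CD5, 22 rose and 11 fell. With age as a covariate, which separates the groups fully here, 10 rose and 1 fell.

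**Figure D1:**
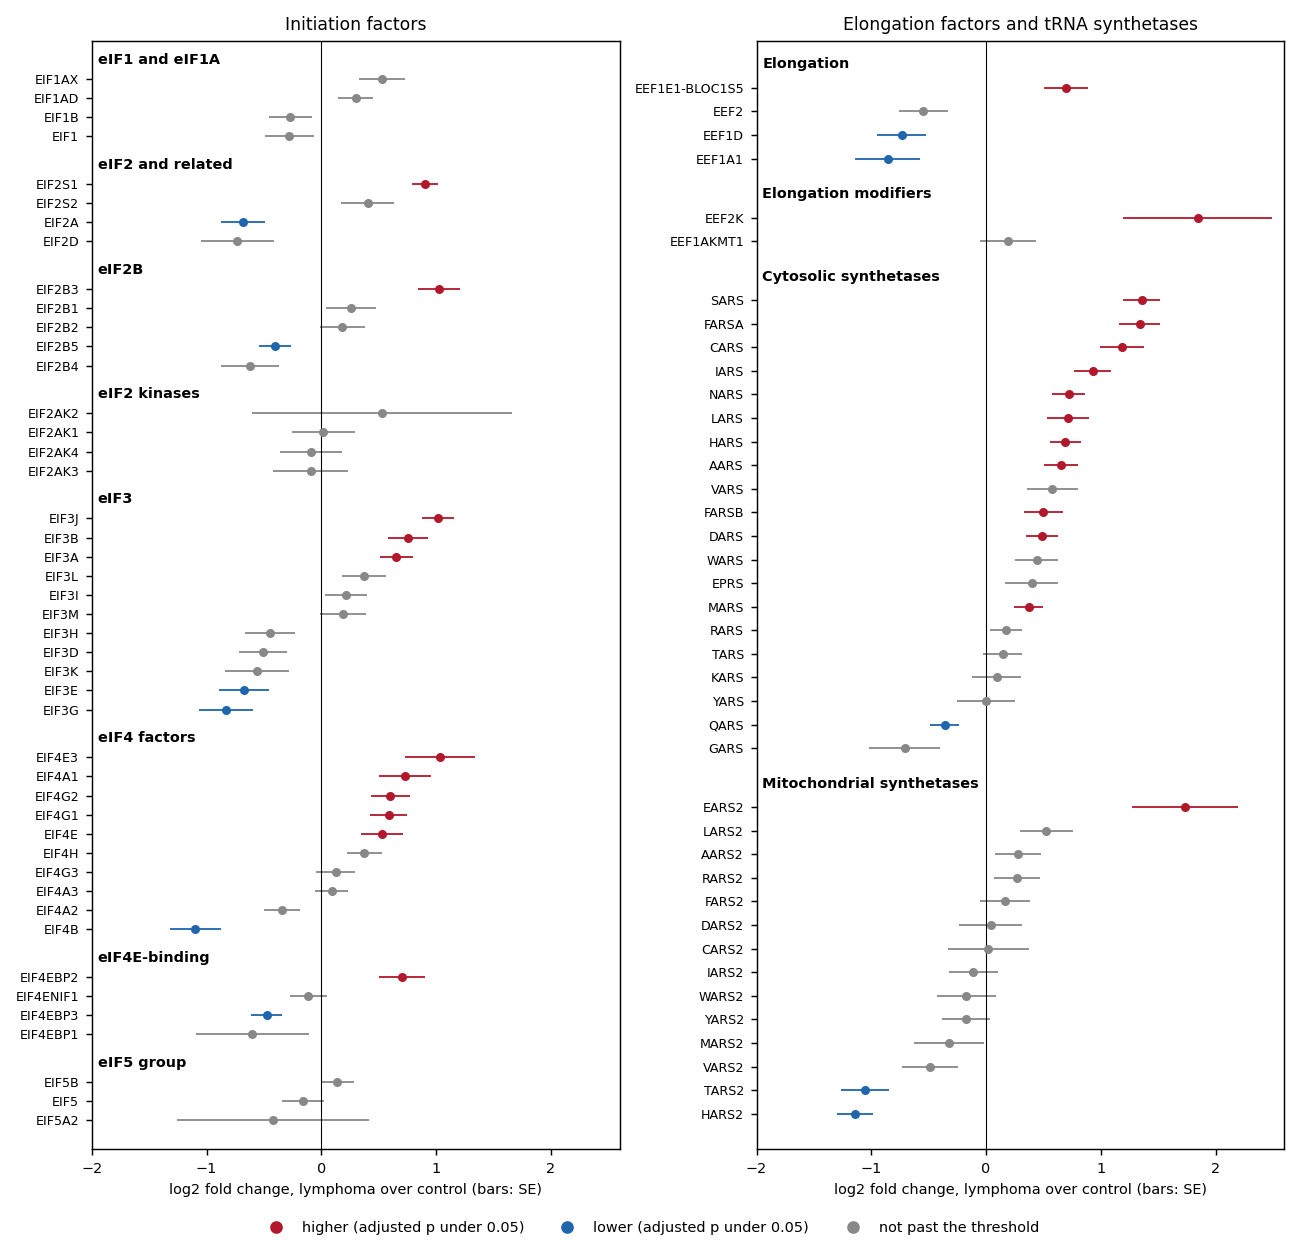
Log2 fold change of lymphoma over control (x axis) with its standard error (bars) for the 85 members tested, grouped by role and coloured by the limma call. The cytosolic synthetases lie mostly right of 0, with SARS at 1.36 and FARSA at 1.34, whereas EIF4B, HARS2 and TARS2 lie furthest to the left at -1.10, -1.14 and -1.05.

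Cytosolic synthetases were the largest role group and the one with the most calls. By share, 55% rose and 5% fell, against 19.4% and 15.7% of all genes. Other groups had similar or larger shares of calls. Of the 10 eIF4 factors 50% rose and 10% fell, and of the 4 tested rows named for elongation factors 25% rose and 50% fell. The 1 that rose was the readthrough row EEF1E1-BLOC1S5, and EEF1E1 is a synthetase complex component. Of the 20 cytosolic synthetases, 17 had a fold change above 0 (8273 of 15977 among all genes), and 10 were higher in every lymphoma than in every control. The median log2 fold change of the 20 was 0.49. SARS, which charges serine tRNA, had 1261, 1663 and 1867 normalised reads as the lowest, median and highest of the 6 lymphomas, against 545, 674 and 646 in the controls. The groups did not overlap, and SARS rose by 1.36 ± 0.16 (log2 fold change ± SE, as for all such values below; adjusted p = 0.000287, limma). FARSA, the alpha subunit of phenylalanyl-tRNA synthetase, had 827, 946 and 1075 as the lowest, median and highest lymphoma value, against 292, 393 and 469 in the controls. Again every lymphoma was above every control, and the log2 fold change was 1.34 ± 0.18 (adjusted p = 0.000483, limma). CARS, the cysteine enzyme, had 496, 559 and 703 in lymphomas, by the same summary, and 209, 292 and 273 in the controls. It rose by 1.18 ± 0.19 on the log2 scale with no overlap (adjusted p = 0.00134, limma). IARS, the isoleucine enzyme, had 2782, 3367 and 4238 in lymphomas and 1671, 1849 and 1810 in the controls, which did not overlap. Its log2 fold change was 0.93 ± 0.16 (adjusted p = 0.00206, limma).

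Further cytosolic enzymes rose by less. AARS, for alanine, had 1816, 2358 and 2740 as the lowest, median and highest lymphoma value and 1443, 1530 and 1443 in the controls, with no overlap and a log2 fold change of 0.65 ± 0.15 (adjusted p = 0.00818, limma). HARS, for histidine, was narrow within each group, at 1017 to 1215 in lymphomas and 653 to 706 in controls. NARS, LARS, HARS, FARSB and DARS, singled out after their values were seen, rose by 0.72, 0.71, 0.69, 0.50 and 0.49. MARS, for methionine, lay at 996 to 1248 in lymphomas and 868, 892 and 883 in controls; these did not overlap, and its log2 fold change was 0.37 ± 0.13 (adjusted p = 0.0454, limma). WARS, the tryptophan enzyme that interferon induces, had a log2 fold change of 0.44 that did not pass (adjusted p = 0.0876, limma). EPRS, which charges both glutamate and proline tRNA, had 0.40 and did not pass either (adjusted p = 0.198, limma). VARS, also chosen after its values were seen, had 0.58 with an adjusted p of 0.0679 in limma.

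QARS and GARS had lower values in lymphomas. QARS, the glutamine enzyme, had 2588, 2684 and 3216 as the lowest, median and highest lymphoma value and 3736, 3486 and 3610 in the controls. It was the only cytosolic synthetase that fell, by 0.36 ± 0.13 on the log2 scale (adjusted p = 0.049, limma). GARS, which serves both cytosol and mitochondrion, had 1443, 3139 and 3377 in lymphomas and 4753, 3843 and 3717 in controls. Every lymphoma was lower, but Boxer lymphoma 3 (1512) and other-breed lymphoma 2 (1443) lay far below the rest, and the log2 fold change of -0.71 ± 0.31 did not pass (adjusted p = 0.101, limma). Of the 8 synthetases held in the multi-tRNA synthetase complex, a particle of the mammalian cytosol, DARS, IARS, LARS and MARS rose, QARS fell, and EPRS, KARS and RARS did not pass. Dropping 1 library at a time ended the call of LARS without control 1 or 2 (limma adjusted p = 0.0598 and 0.0525) and that of DARS without control 2 or 3 (0.0913 and 0.0942). MARS lost its call in 8 of 9 such fits, all but that without Boxer lymphoma 1, and QARS in 7, all but those without other-breed lymphoma 1 or 3 (limma adjusted p up to 0.131 and 0.143). FARSB lost it in 6, without Boxer lymphoma 2 or 3, other-breed lymphoma 1 or 3 or control 2 or 3 (limma adjusted p up to 0.176).

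**Figure D2:**
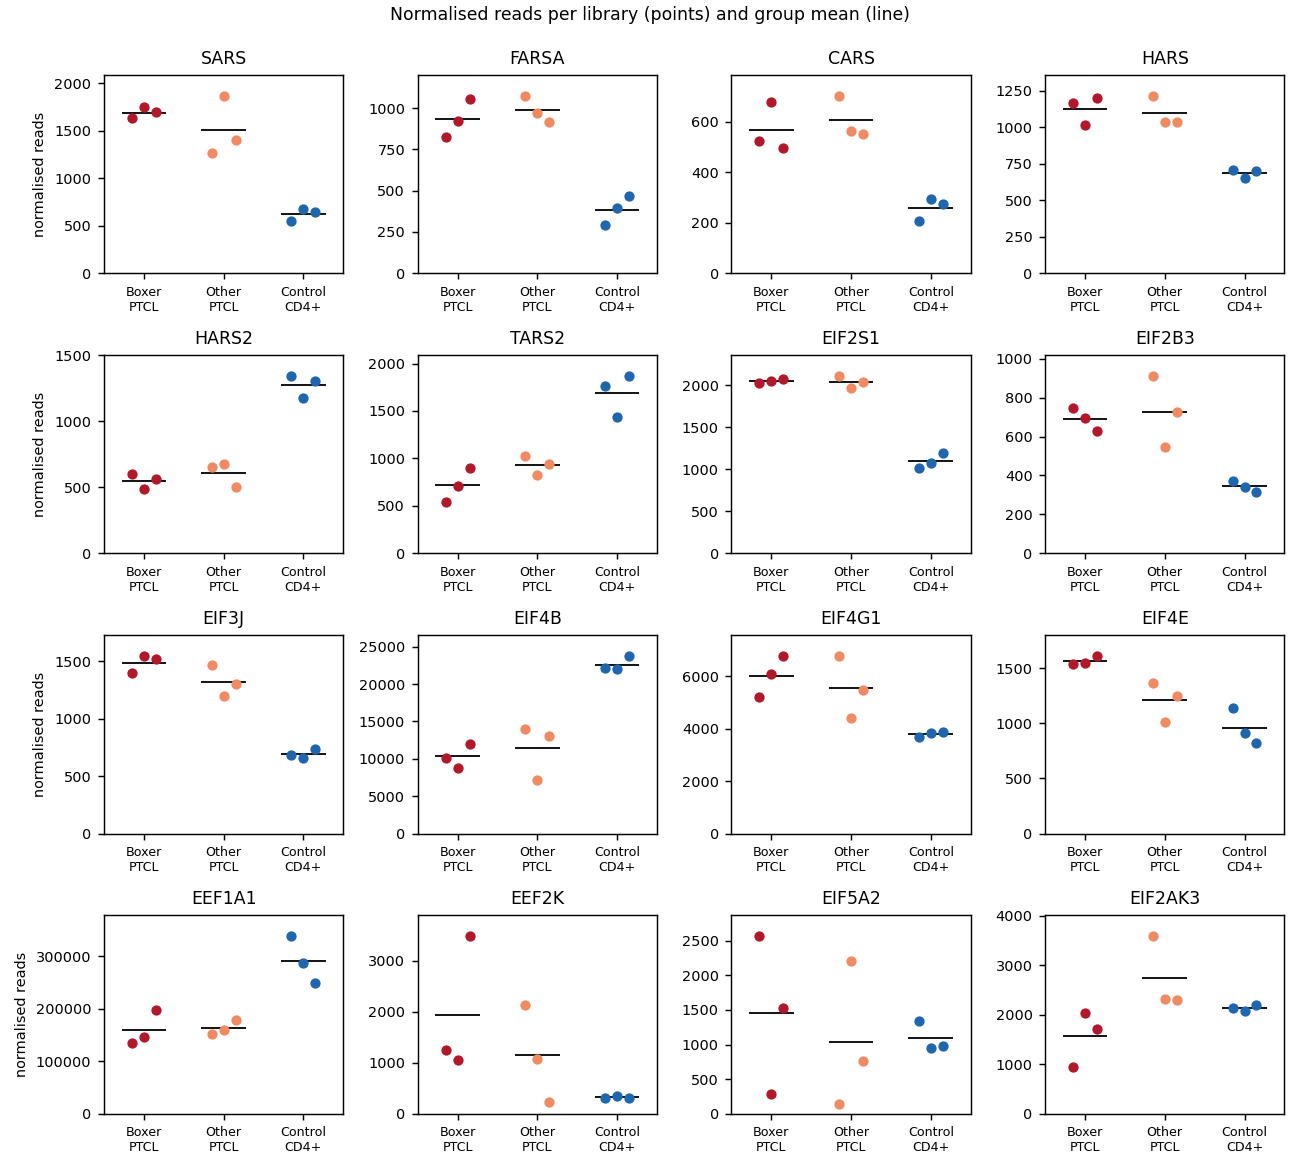
Normalised reads (y axes, from 0) of 16 members in each library, with points for the 3 libraries per group and lines at the group mean. SARS, FARSA, CARS, HARS, EIF2S1, EIF2B3 and EIF3J sit above the controls in every lymphoma, HARS2, TARS2, EIF4B and EEF1A1 sit below, and EEF2K and EIF5A2 scatter between 238 and 3484 and between 145 and 2567 among the lymphomas.

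Of the 14 mitochondrial synthetases, 1 rose, 2 fell and 11 did not pass, with a median log2 fold change of -0.05, so these shares (7.14% and 14.3%) were below the background for higher and near it for lower calls. HARS2, the mitochondrial histidine enzyme, had 488, 579 and 679 as the lowest, median and highest lymphoma value, against 1342, 1178 and 1303 in the controls. The groups lay far apart, and HARS2 fell by 1.14 ± 0.16 on the log2 scale (adjusted p = 0.000639, limma). TARS2, the mitochondrial threonine enzyme, had 539, 861 and 1026 in lymphomas and 1762, 1434 and 1869 in controls, also without overlap. It fell by 1.05 ± 0.21 (adjusted p = 0.00415, limma). EARS2, the mitochondrial glutamate enzyme, had 93.9, 320 and 472 in lymphomas and 53.2, 97.4 and 94.5 in controls. Boxer lymphoma 2 (93.9) lay among the controls and the other 5 lymphomas above them. EARS2 rose by 1.73 ± 0.46 (adjusted p = 0.0158, limma), and without control 1, which had the lowest value, the log2 fold change was 1.45 with a limma adjusted p of 0.078.

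Set side by side for each amino acid, the cytosolic enzyme had the higher log2 fold change of the pair in 12 of 14 cases. The exceptions were glutamate, where EARS2 exceeded EPRS by 1.33, and arginine, where RARS2 exceeded RARS by 0.09. This count takes signs only, and some gaps were small beside the standard errors. YARS exceeded YARS2 by 0.17 (SE 0.25 and 0.21) and LARS exceeded LARS2 by 0.19 (SE 0.18 and 0.23). Histidine showed the widest gap, 1.83 on the log2 scale. The ratio of HARS to HARS2 normalised reads ranged over 1.52 to 2.15 in lymphomas and 0.526 to 0.554 in controls, a separation that follows from their opposite calls. HARS2 and HARS (there named HARS1) are neighbours whose annotated ranges overlap in the RefSeq annotation of the dog assembly UU_Cfam_GSD_1.0, which is not the build of the files. The sources used here do not say whether the kit kept strand information, so reads from the overlap cannot be assigned with certainty.

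**Figure D3:**
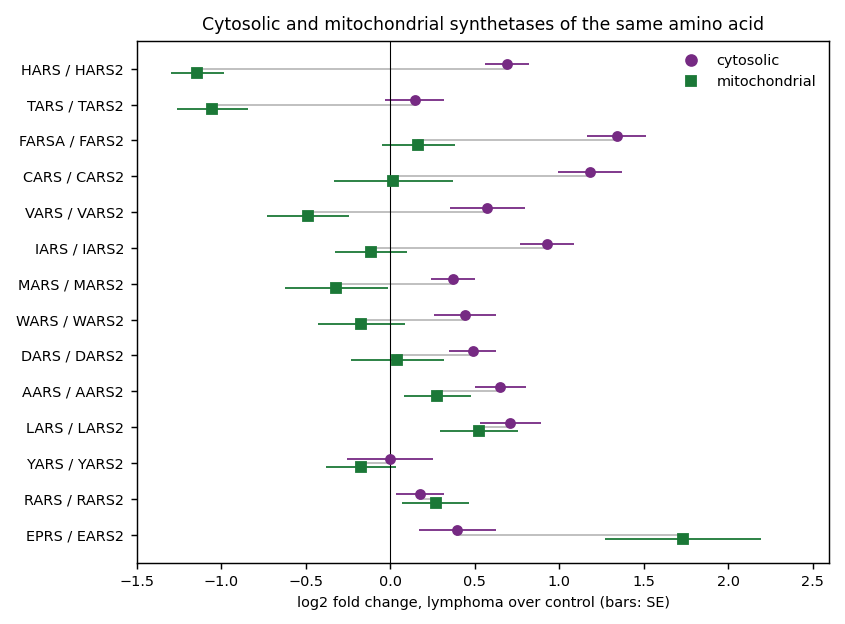
Log2 fold change of lymphoma over control (x axis, bars are standard errors) for the cytosolic (circles) and mitochondrial (squares) synthetase of 14 amino acids, ordered by the difference between them. Circles lie right of squares in 12 of 14 rows, with the widest gap at HARS and HARS2 (0.69 and -1.14), and the order turns round at EPRS and EARS2 (0.40 and 1.73).

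Among the initiation factors, 1 of 4 rows of eIF2 and related factors rose and 1 fell (25% and 25%). Of 5 subunits of its exchange factor eIF2B, 1 rose and 1 fell (20% and 20%). Of all genes 19.4% rose and 15.7% fell, so only single genes are described. EIF2S1 encodes the alpha subunit of eIF2, the one that stress kinases phosphorylate. It had 1970, 2046 and 2112 normalised reads as the lowest, median and highest lymphoma value, against 1017, 1071 and 1195 in the controls. EIF2S1 rose by 0.90 ± 0.12 on the log2 scale (adjusted p = 0.000435, limma), and its SD of 0.03 (log2) among lymphomas was the smallest of any member tested. EIF2S2, another eIF2 subunit, chosen after its values were seen, did not pass. It had 1337 in Boxer lymphoma 2, 1918 to 3067 in the other lymphomas and 1744, 1639 and 1689 in controls. EIF2B3, the gamma subunit of eIF2B, had 549, 709 and 911 in lymphomas and 373, 343 and 318 in controls. It rose by 1.02 ± 0.18 with no overlap (adjusted p = 0.00229, limma). EIF2B5, the catalytic epsilon subunit, had 1050, 1188 and 1403 in lymphomas and 1653, 1517 and 1648 in controls, and fell by 0.40 ± 0.14 (adjusted p = 0.0469, limma).

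EIF2A, which despite its name is no subunit of eIF2 and can bind initiator tRNA on its own, had 845, 1374 and 1571 in lymphomas and 2135, 2166 and 1923 in controls. All lymphomas were lower, and EIF2A fell by 0.68 ± 0.19 (adjusted p = 0.0199, limma). None of the 4 eIF2 kinases passed in limma, edgeR or DESeq2, and none had an unadjusted limma p under 0.05. EIF2AK3 (PERK), which senses stress of the endoplasmic reticulum, had 952, 2167 and 3583 in lymphomas and 2135, 2068 and 2186 in controls, so the lymphomas lay on both sides of the controls (log2 fold change -0.09, limma adjusted p = 0.844). Its sign turned without Boxer lymphoma 1 (0.12). EIF2AK2 (PKR), the sensor of double-stranded RNA, had only 0 to 29.4 normalised reads in lymphomas and 0.926 to 10.7 in controls, too few for a direction; its log2 fold change of 0.53 turned to -0.28 without control 3. Leaving out 1 control at a time ended the call of EIF2A (limma adjusted p 0.0521 to 0.0836), and EIF2B5 lost its call in 7 of the 9 fits without 1 library, all but those without Boxer lymphoma 2 or other-breed lymphoma 1 (up to 0.143).

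eIF3 is the large scaffold on the small ribosomal subunit. Of its 11 subunits tested, 3 rose and 2 fell, 27.3% and 18.2%, which is close to the 19.4% and 15.7% of all genes, so only the single subunits are described. EIF3J, a loosely attached subunit, had 1192, 1431 and 1542 as the lowest, median and highest lymphoma value and 684, 655 and 731 in the controls, and rose by 1.02 ± 0.14 on the log2 scale (adjusted p = 0.00053, limma). EIF3B, a core subunit, had 3338, 5193 and 5569 in lymphomas and 2754, 2886 and 2983 in controls. The lowest lymphoma, other-breed lymphoma 3, was still above the controls, and EIF3B rose by 0.75 ± 0.17 (adjusted p = 0.00841, limma). EIF3A, the largest subunit, had 10194, 12771 and 13444 in lymphomas and 8389, 7680 and 7413 in controls, with a rise of 0.65 ± 0.15 (adjusted p = 0.00706, limma).

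EIF3G, an RNA-binding subunit, had 1076, 1603 and 2512 in lymphomas and 2593, 2863 and 3451 in controls; all lymphomas were lower, and it fell by 0.83 ± 0.24 (adjusted p = 0.021, limma). EIF3E had 4359, 6706 and 8651 in lymphomas and 11179, 10477 and 9629 in controls. It fell by 0.67 ± 0.22, again with no overlap (adjusted p = 0.0343, limma). The calls of EIF3G and EIF3E were lost without control 2 or 3 (limma adjusted p 0.0683 and 0.0979 for EIF3G, 0.107 and 0.0759 for EIF3E). That of EIF3E was also lost without control 1 (0.116), Boxer lymphoma 1 (0.0541) or Boxer lymphoma 3 (0.0578).

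Of the 10 tested eIF4 factors, which recognise the cap and unwind the message, 5 rose and 1 fell (50% and 10%, against 19.4% and 15.7% of all genes). In Boxer lymphomas alone 5 rose and 1 fell against controls, where 18.6% and 14.4% of all genes did. In other-breed lymphomas alone 0 rose and 1 fell, where 13.8% and 10.7% of all genes did. There 4 of the 10 were higher at an unadjusted limma p under 0.05. EIF4A1, the main RNA helicase, had 3731, 6171 and 7906 in lymphomas by the same summary and 3171, 4006 and 3632 in controls. Other-breed lymphoma 2 (3731) lay within the control range and the other 5 lymphomas above it, and EIF4A1 rose by 0.73 ± 0.23 (adjusted p = 0.0289, limma). Its paralog EIF4A2, chosen after its values were seen, had a log2 fold change of -0.34 that did not pass (adjusted p = 0.119, limma), and the ratio of EIF4A1 to EIF4A2 was 0.388 to 1.07 in lymphomas and 0.271 to 0.380 in controls. EIF4G1, the scaffold that joins cap binding and helicase, had 4407, 5789 and 6778 in lymphomas and 3695, 3826 and 3896 in controls, and rose by 0.59 ± 0.16 (adjusted p = 0.0183, limma). EIF4G2 (DAP5), a relative that does not bind eIF4E, had 29817, 32260 and 36874 in lymphomas and 24567, 21243 and 19279 in controls, and rose by 0.60 ± 0.17 (adjusted p = 0.0185, limma). Neither overlapped.

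EIF4E, the cap-binding protein, had 1011, 1455 and 1612 in lymphomas and 1138, 914 and 827 in controls. The 3 Boxer lymphomas (1539 to 1612) were above all controls, other-breed lymphoma 2 (1011) was not, and the log2 fold change of 0.53 ± 0.18 passed narrowly (adjusted p = 0.0468, limma). EIF4E3, a cap-binding relative, had 131, 218 and 277 in lymphomas and 104, 96.6 and 91.7 in controls, without overlap, and rose by 1.04 ± 0.31 (adjusted p = 0.0246, limma). EIF4B, the cofactor of the helicase, stood apart. It had 7145, 11058 and 13941 in lymphomas and 22107, 21991 and 23732 in controls, so no lymphoma came near the controls, and it fell by 1.10 ± 0.22 (adjusted p = 0.0043, limma). The call of EIF4E was lost in 8 of 9 fits without 1 library, all but that without other-breed lymphoma 2 (limma adjusted p up to 0.183). That of EIF4A1 was lost without Boxer lymphoma 3 or any 1 of the controls (up to 0.116), and those of EIF4G1 and EIF4E3 without any 1 of the controls (0.0588 to 0.0693 and 0.0644 to 0.086). EIF4G2 lost it without control 2 or 3 (0.0825 and 0.0902).

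The eIF4E-binding proteins hold eIF4E away from eIF4G until mTORC1, the growth-sensing kinase complex, phosphorylates them. EIF4EBP2 had 319, 465 and 553 in lymphomas and 261, 258 and 303 in controls and rose by 0.70 ± 0.20 with no overlap (adjusted p = 0.0215, limma). EIF4EBP3 had 3077, 3354 and 3941 in lymphomas and 4843, 5180 and 4283 in controls and fell by 0.48 ± 0.13 (adjusted p = 0.0199, limma). EIF4EBP3 lies beside ANKHD1 in the RefSeq annotation, and ANKHD1 was not analysed here. EIF4EBP1 was low, at 16.1 to 80.0 in lymphomas and 54.6 to 75.1 in controls, and its log2 fold change of -0.60 did not pass (adjusted p = 0.362, limma). The call of EIF4EBP2 was lost without any 1 of the controls (limma adjusted p 0.0501 to 0.0911) and that of EIF4EBP3 without control 1 or 2 (0.0695 and 0.107). No member of the groups of eIF1 (4 tested) or eIF5 (3 tested) passed in limma or edgeR, and at an unadjusted limma p under 0.05 there were 1 and 0. That 1 was EIF1AX, which helps the small subunit scan for the start codon. Its log2 fold change of 0.53 had an adjusted p of 0.0659 in limma and 0.0487 in DESeq2.

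Elongation factors were dominated by EEF1A1. EEF1A1, which carries charged tRNA to the ribosome, had 134383, 155707 and 197589 normalised reads as the lowest, median and highest lymphoma value, against 338481, 288192 and 248993 in the controls. The groups did not overlap, and EEF1A1 fell by 0.86 ± 0.28 on the log2 scale (adjusted p = 0.0376, limma). It had the most reads of any gene in all 3 controls and ranked 2 to 6 in the lymphomas. EEF1A1 took 1.05% ± 0.142 of a lymphoma library (SD, n = 6) and 1.90% ± 0.208 of a control library (SD, n = 3). EEF1D, an exchange factor subunit for EEF1A, had 1964, 3243 and 3849 in lymphomas and 4189, 5457 and 5674 in controls and fell by 0.74 ± 0.21 (adjusted p = 0.0227, limma). EEF2, which moves the ribosome to the next codon, had 23656, 34534 and 36959 in lymphomas and 43849, 45226 and 48347 in controls. Every lymphoma was lower, but the log2 fold change of -0.55 ± 0.21 did not pass (adjusted p = 0.0683, limma), while it passed with DESeq2 (adjusted p = 0.0218) and with upper-quartile scaling (adjusted p = 0.0363, limma).

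EEF2K, the kinase that phosphorylates EEF2 and slows elongation, had 238, 1161 and 3484 in lymphomas and 315, 344 and 313 in controls. Other-breed lymphoma 3 (238) lay below the controls and the other 5 lymphomas, at 1060 to 3484, well above them. EEF2K rose by 1.84 ± 0.65, just inside the threshold (adjusted p = 0.049, limma). The row named EEF1E1-BLOC1S5, a readthrough of EEF1E1, a synthetase complex component, and its neighbour BLOC1S5, had 456, 569 and 753 in lymphomas and 367, 337 and 366 in controls. It rose by 0.70 ± 0.19 (adjusted p = 0.0171, limma). EEF2K lost its call in 8 of 9 fits without 1 library, all but that without other-breed lymphoma 3 (limma adjusted p 0.0632 to 0.130). EEF1A1 lost it in 7, all but those without Boxer lymphoma 3 or other-breed lymphoma 3 (0.0509 to 0.130). EEF1D lost it without control 2 or 3 (0.0951 and 0.098), and EEF1E1-BLOC1S5 without any 1 of the controls (0.0518 to 0.0787).

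EEF1A1, EEF1D, EEF2, EIF3E, EIF3H and EIF4B belong to the genes whose messages start with a terminal oligopyrimidine tract, a feature known in mammals to tie their translation to mTORC1. All 6 had a fold change below 0, as did 7704 of all 15977 genes, and their median log2 fold change was -0.70. Of the 6, 4 fell (66.7%), against 15.7% of all genes, and the list was chosen with these results known. EIF3H, chosen after its values were seen, had -0.44 (adjusted p = 0.136, limma). The deposited values measure RNA levels and not translation.

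Shares of the library total are a description without a test. All 89 rows together took 2.75% ± 0.205 of a lymphoma library (SD, n = 6) and 3.65% ± 0.182 of a control library (SD, n = 3). Without EEF1A1 and EEF2 the share was 1.49% ± 0.0746 in lymphomas and 1.45% ± 0.00269 in controls. Cytosolic synthetases took 0.279% ± 0.0105 in lymphomas and 0.224% ± 0.00435 in controls. Mitochondrial synthetases took 0.0636% ± 0.00777 in lymphomas and 0.0773% ± 0.00706 in controls, and other-breed lymphoma 2 (0.0772%) lay within the control range. The cytosolic share was 0.269%, 0.275% and 0.290% in Boxer lymphomas 1 to 3 and 0.295%, 0.275% and 0.271% in other-breed lymphomas 1 to 3. In the same libraries the fibroblast markers summed to 5369, 2804 and 19230 in Boxer and 198, 473 and 11165 in other-breed lymphomas. The macrophage markers summed to 12832, 6162 and 12112 in Boxer and 920, 3470 and 21280 in other-breed lymphomas, and the part of these cells in the share was not tested.

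**Figure D4:**
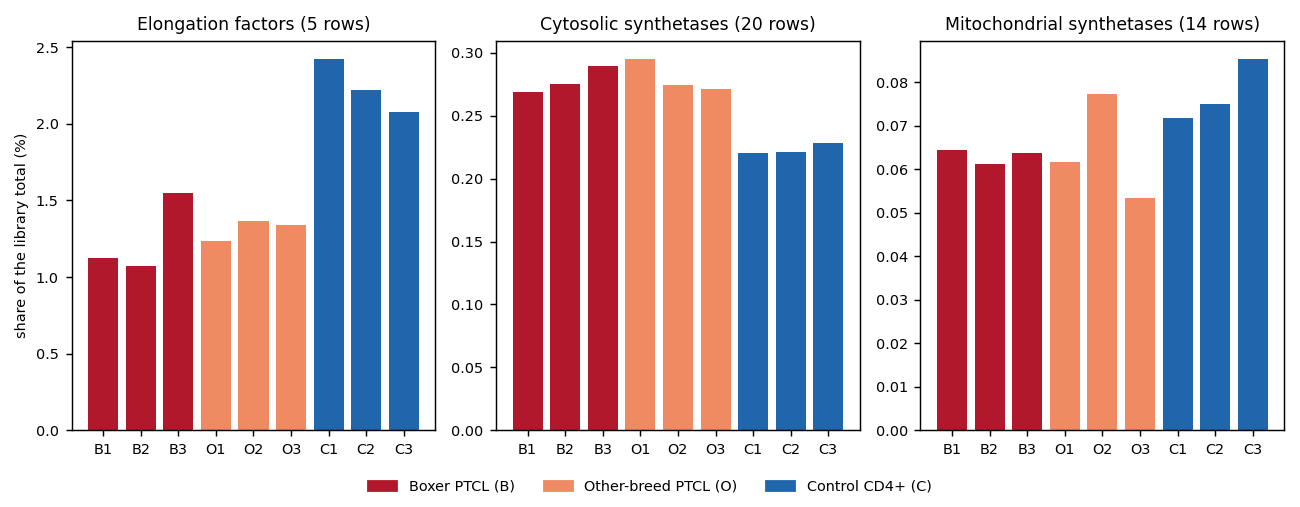
Summed normalised reads of elongation factors, cytosolic synthetases and mitochondrial synthetases as a percentage of the library total (y axes, from 0) in Boxer lymphomas (B), other-breed lymphomas (O) and controls (C), with 1 bar per library. Elongation factors stand at 1.07% to 1.55% in lymphomas and 2.08% to 2.42% in controls, and cytosolic synthetases at 0.269% to 0.295% in lymphomas and 0.221% to 0.229% in controls.

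Spread among the lymphomas was also compared with that of all genes. The members' median SD on the log2 scale over the 6 lymphomas was 0.29, against 0.56 for all genes tested, and was 0.22 for cytosolic and 0.35 for mitochondrial synthetases. These members differ in level from the average gene, and SD depends on level, so this is a description. EIF5A2, the less common form of the elongation-promoting factor eIF5A, was a wide exception. It had 2567, 283 and 1526 in Boxer lymphomas 1 to 3, 145, 2204 and 759 in other-breed lymphomas 1 to 3, and 1342, 944 and 984 in controls. Its highest lymphoma value was 17.7 times its lowest, and the corresponding span for EEF2K was 14.7 times. For EIF5A2, chosen after its values were seen, the lymphomas lay on both sides of the controls (log2 fold change -0.42, limma adjusted p = 0.717).

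Each lymphoma group was also set against the controls in a fit of all 3 groups, and the same 3 controls serve both contrasts. In Boxer lymphomas 23 of 85 members rose and 9 fell against controls, where 18.6% and 14.4% of all genes did. In other-breed lymphomas 14 rose and 4 fell, where 13.8% and 10.7% of all genes did, and with upper-quartile scaling these were 12 and 9. For SARS the log2 fold changes were 1.45 ± 0.19 in Boxer and 1.26 ± 0.19 in other-breed lymphomas. For EIF2S1 they were 0.91 ± 0.14 in Boxer and 0.90 ± 0.14 in other-breed lymphomas, and for HARS2 -1.22 ± 0.18 in Boxer and -1.07 ± 0.18 in other-breed lymphomas. All of these passed (limma adjusted p 0.000747 to 0.00417). EEF2K had 2.36 ± 0.71 in Boxer lymphomas, which passed, and 1.33 ± 0.71 in other-breed lymphomas, which did not (limma adjusted p = 0.0317 and 0.201). EARS2 had 1.27 ± 0.47 in Boxer lymphomas, which did not pass, and 2.19 ± 0.47 in other-breed lymphomas, which did (limma adjusted p = 0.0631 and 0.0104). Without control 1, 2 or 3 the Boxer counts were 13, 9 and 10 higher and 6, 5 and 5 lower, and without Boxer lymphoma 3 they were 13 and 8. The other-breed counts without control 1, 2 or 3 were 10, 8 and 8 higher and 1, 2 and 1 lower, and without other-breed lymphoma 2 they were 17 and 2.

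The direct comparison of 3 Boxer with 3 other-breed lymphomas asked whether breed marks a difference in this machinery. No member passed, and neither did any of the 15112 genes tested (0%). At an unadjusted p under 0.05, limma had 3 of 85 members, all lower in Boxers, and 753 of all genes. edgeR and DESeq2 called no member either, although DESeq2 called 44 genes higher and 58 lower in all. The 3 members with the smallest p were EIF3K, EIF2AK3 and EIF2B4. EIF2AK3 had 952, 2043 and 1713 in Boxer and 3583, 2324 and 2290 in other-breed lymphomas, with a log2 difference of -0.84 ± 0.34 (adjusted p = 0.881, limma). EIF3K, an eIF3 subunit, had 3074, 1867 and 3490 in Boxer and 4556, 4280 and 5051 in other-breed lymphomas, with -0.77 ± 0.27 (adjusted p = 0.881, limma). EIF2B4, the delta subunit of eIF2B, had 515, 735 and 824 in Boxer and 922, 1304 and 982 in other-breed lymphomas, with -0.64 ± 0.26 (adjusted p = 0.881, limma). EEF2K differed by 1.03 ± 0.83 and EARS2 by -0.92 ± 0.49 between Boxer and other-breed lymphomas, neither past the threshold (limma adjusted p = 0.886 and 0.881).

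The wider pathway was read from lists of further genes. The ATF4 response is the programme that follows phosphorylation of eIF2 alpha, and it induces genes of amino acid synthesis and uptake and many cytosolic synthetases. Of 25 such genes tested, other than the synthetases, 7 rose and 3 fell (28% and 12%), with a median log2 fold change of 0.04. These shares were near the 19.4% and 15.7% of all genes, so the genes below are described singly. PSAT1, of serine synthesis, had 845, 932 and 1073 as the lowest, median and highest lymphoma value and 217, 191 and 263 in controls. No lymphoma overlapped the controls, and PSAT1 rose by 2.08 ± 0.16 (adjusted p = 3.42e-05, limma). PSPH, the next enzyme of that route, rose by 1.80 ± 0.33 and SLC7A5, a transporter of large neutral amino acids, by 1.39 ± 0.31 (limma adjusted p = 0.00275 and 0.00734). ATF4 itself had 4370, 5120 and 6750 in lymphomas and 7921, 9718 and 7825 in controls, with every lymphoma lower. ATF4 fell by 0.68 ± 0.17 (adjusted p = 0.0138, limma), and its call was lost without control 2 (0.081).

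PPP1R15A (GADD34), which directs the phosphatase that restores eIF2, had 26.0 to 302 in lymphomas and 2383, 2700 and 1005 in controls and fell by 4.31 ± 0.82 (adjusted p = 0.00323, limma). CTH, which makes cysteine, had 0.789 to 19.1 in lymphomas and 96.9, 76.0 and 92.6 in controls and fell by 3.62 ± 0.73 (adjusted p = 0.00429, limma). Of 10 tested genes of mTORC1 and the MNK kinases that act on eIF4E, 2 rose (20%, near the 19.4% of all genes). None fell, against 15.7% of all genes, and 6 of the 10 had a fold change below 0. The 2 that rose were MLST8 by 1.45 ± 0.32 and MTOR by 0.51 ± 0.17 (limma adjusted p = 0.00706 and 0.0404). MTOR lost its call without any 1 control (limma adjusted p 0.083 to 0.135), Boxer lymphoma 3 (0.0516) or other-breed lymphoma 1 or 3 (0.0618 and 0.0634). Of 6 poly(A)-binding genes and regulators, 1 fell (16.7%, near the 15.7% of all genes) and none rose. This was PDCD4, an inhibitor of eIF4A, which fell by 1.20 ± 0.22 (adjusted p = 0.00271, limma). It had 2506 to 4451 in lymphomas and 9225, 6225 and 7507 in controls, without overlap.

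**Figure D5:**
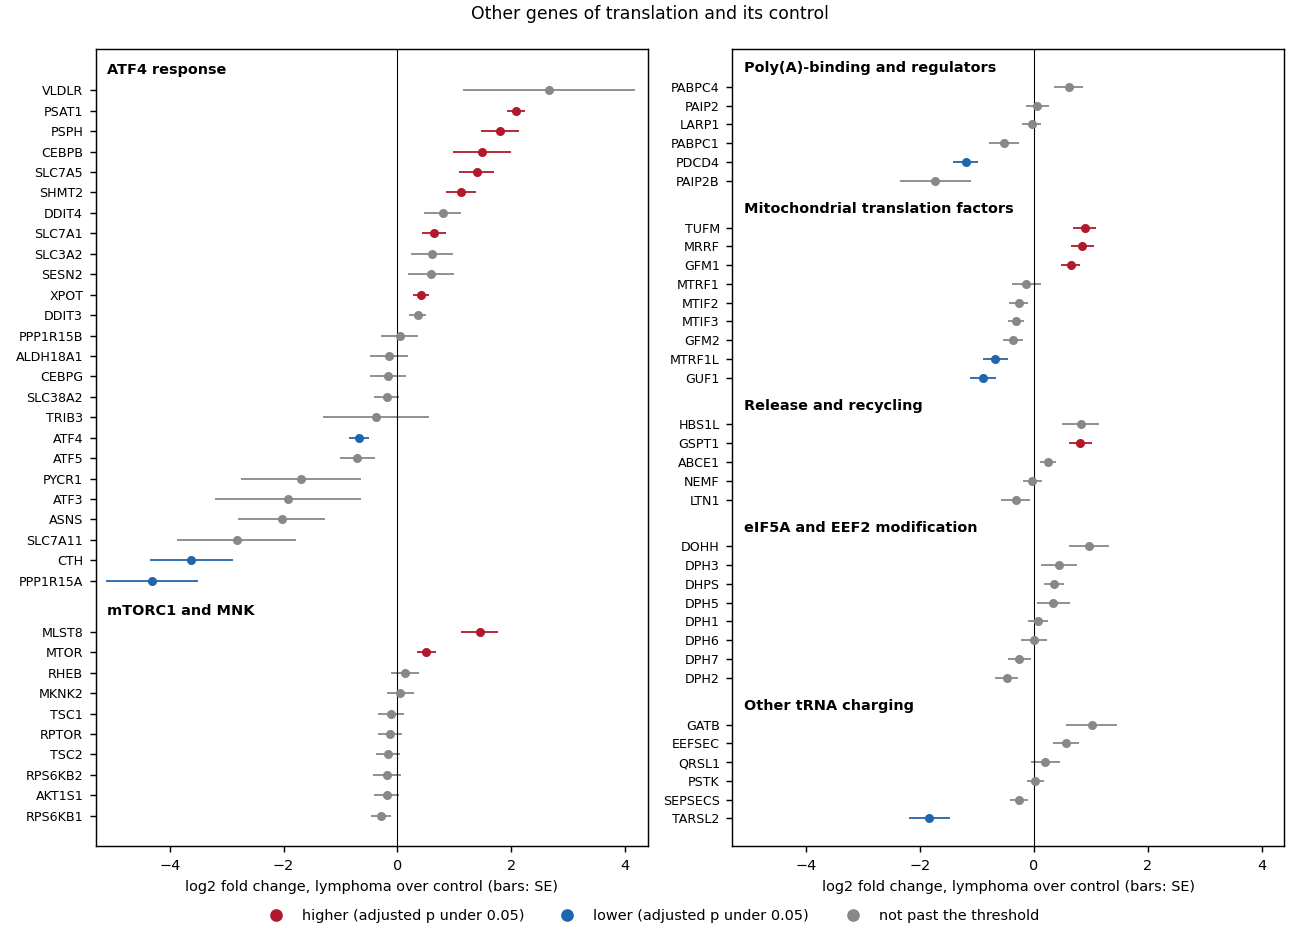
Log2 fold change of lymphoma over control (x axis, bars are standard errors) for further genes of translation and its control, grouped by list and coloured by the limma call. PSAT1 (2.08), PSPH (1.80) and MLST8 (1.45) lie to the right, and PPP1R15A (-4.31), CTH (-3.62) and PDCD4 (-1.20) to the left.

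Of 9 tested factors of mitochondrial translation, 3 rose and 2 fell (33.3% and 22.2%, against 19.4% and 15.7% of all genes). TUFM, the mitochondrial counterpart of EEF1A, rose by 0.89 ± 0.20, with 1098 to 1944 in lymphomas and 846, 850 and 709 in controls (adjusted p = 0.00718, limma). MRRF, a ribosome recycling factor, and GFM1, an elongation factor, rose by 0.85 ± 0.20 and 0.64 ± 0.16 (limma adjusted p = 0.0084 and 0.0117). GUF1 and MTRF1L fell by 0.90 ± 0.23 and 0.68 ± 0.22 (limma adjusted p = 0.0131 and 0.0369). Of 5 release and recycling genes, 1 rose (20%, near the 19.4% of all genes) and none fell. This was GSPT1, the release factor eRF3a, which rose by 0.81 ± 0.20 (adjusted p = 0.0112, limma). TARSL2, a threonyl-tRNA synthetase paralog outside the symbol rule, had 268 to 917 in lymphomas and 2030, 1219 and 1172 in controls and fell by 1.84 ± 0.36 (adjusted p = 0.00391, limma). It was the only 1 of 6 further tRNA-charging genes to pass (16.7% lower, near the 15.7% of all genes). None of 8 genes that modify eIF5A or EEF2 passed in limma or edgeR. At an unadjusted limma p under 0.05, 1 of these 8 was higher and 1 lower, and DESeq2 called 1 higher and 1 lower. Without 1 control the calls of GUF1 (control 1, 0.0672), MRRF (control 2, 0.0506), GFM1 (control 3, 0.0691) and GSPT1 (control 2, 0.0587) were lost in limma adjusted p. MTRF1L lost its call without control 1 or 2 (0.169 and 0.113), Boxer lymphoma 2 (0.0565) or other-breed lymphoma 3 (0.0604).

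Calls differed in how firmly they held. Of the 36 members called between lymphomas and controls, 15 were called in every fit that left out 1 library, and 9 in all 24 alternatives. Those 9 were SARS, FARSA, CARS, HARS, EIF2S1, EIF2B3, EIF3B and EIF3J, all higher, and HARS2, lower. None of the 36 was called in the opposite direction under any of the 24. MARS held in 6 of 24, EIF2B5, EIF4E and EEF2K in 10, EEF1A1 and QARS in 11 and FARSB in 12.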

How the data were processed

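RNA sequencing of 6 canine CD4+ PTCL samples and 3 sorted CD4+ T cell samples was analysed from 9 deposited tables. The submitters' processing notes name TopHat2, HTSeq and DESeq2 and the dog build CanFam3.1, with no versions. The deposited signal is the authors' read count of a gene divided by 1 size factor per library. All values (100%) were whole multiples of 1 read within 0.01 reads, so whole reads were recovered for the count tests. Depth, 11710623 to 18488468 reads, limits the precision of low genes, and near-identical copies such as paralogs can share reads.

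Members were taken by symbol. The members, roles and pathway lists were chosen with earlier results of these data known. limma 3.58.1 (R 4.3.3) was fitted to log2(value + 1) with a mean-variance trend over all genes with at least 10 in at least 3 fitted libraries, with Benjamini-Hochberg adjustment over all of them and a threshold of 0.05. Fold changes on this scale understate those of low genes. Lymphoma against control was a fit of 2 groups, each lymphoma group against control a fit of 3 groups, and Boxer against other breed a fit of the 6 lymphomas. The scripts were tested on simulated data.

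Named genes were up to 4 members per role and direction with the smallest p past the threshold, a set of well-known members whatever their result, the 3 members with the smallest p between breeds, and up to 3 pathway genes per list and direction. Others are said to be chosen after their values were seen. The alternatives were 3 other scalings, pseudocounts of 0.5 and 5, no filter and a filter of 50, edgeR 4.0.16 and DESeq2 1.42.0 on the recovered reads, limma-voom with sample weights, a replicate block, sex or age as a covariate, female dogs only, each library left out in turn, and other-breed lymphomas 1 and 2 left out together. No library had values identical to another. The RefSeq annotation of UU_Cfam_GSD_1.0 served only for gene neighbours.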

Additional observations from a re-analysis of the deposited data

Results flagged for a closer look

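Of the 85 members tested, 1 had a lymphoma library far from the other 5. EIF5, which helps release eIF2 after start codon recognition, stood at 6406 normalised reads in other-breed lymphoma 1, whereas the other 5 lymphomas lay between 3695 and 4630 and the controls between 4523 and 5640. The share of reads in the 5 eIF2B genes was likewise highest in other-breed lymphoma 1, at 0.0307%, with 0.0240% to 0.0264% in the other lymphomas and 0.0271% to 0.0300% in the controls. TARSL2 stood at 917 normalised reads in other-breed lymphoma 2, against 268 to 443 in the other lymphomas and 1172 to 2030 in the controls. Chance marks about 1 in 20 groups of this size, so 1 of 85 members is no more than chance would mark.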

How the results depend on the processing

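Disease cannot be told apart from age, breed, neutering and partly sex, and the controls share all 4. The controls were sorted, while tissue and sorting of the lymphomas are not given, so a part of these cannot be told apart from disease either. Tests with 3 controls and 6 lymphomas change with single libraries, low genes such as EIF2AK2 and EIF4EBP1 are limited by depth, and the median log2 fold change of all genes was 0.05, or 0.11 with edgeR, 0.13 with DESeq2 and -0.05 with upper-quartile scaling. Across the genes named and all 4 contrasts, 2866 values kept their direction and side of the threshold under an alternative, 356 lost a call, 90 gained 1 and 14 changed sign. For lymphoma against control, the lower members numbered 11 and became 20 with limma-voom, 7 with the replicate block, 4 with sex as a covariate, 4 in female dogs and 1 with age as a covariate, and the 25 higher members became 10 with age. Leaving out 1 library gave 13 to 26 higher and 3 to 11 lower. For Boxer lymphoma against control, the 9 lower members became 15 with limma-voom and 5 with sex as a covariate, the 23 higher became 15 with the replicate block, and leaving out 1 library gave 9 to 25 higher and 5 to 13 lower. For other-breed lymphoma against control, the 4 lower members became 9 with upper-quartile scaling, 8 with DESeq2 and 9 with limma-voom, the 14 higher became 22 with DESeq2, and leaving out 1 library gave 8 to 17 higher and 1 to 6 lower. Between breeds the count was 0 in all 6 fits without 1 library. The causes were not tested.

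Under the alternatives run, signs turned only for members that did not pass. For lymphoma against control, EIF2AK3 (-0.09) became 0.0087 with DESeq2, 0.27 with sex as a covariate, 0.27 in female dogs and 0.15 with age, and ran from -0.26 to 0.12 over the fits without 1 library. EIF2AK2 (0.53) became -0.24 with sex and -1.98 with age and ran from -0.28 to 1.15 without 1 library, and in other-breed lymphomas it ran from -1.54 to 0.45. EIF5A2 (-0.42) became 0.19 with edgeR and 0.19 with DESeq2 and ran from -0.75 to 0.0737 without 1 library. EIF5 (-0.16) became 0.0499 with age, and EPRS in Boxer lymphomas (0.38) became -0.0596 with sex. Replicate numbers are shared across groups, but the labels give them no meaning. Deviations of same-numbered libraries from their group means had correlations of -0.136 to 0.104 over 9 pairs. Those of differently numbered libraries ran from -0.1225 to 0.151. With 3 libraries per group this check cannot decide whether the numbers pair the samples. With the replicate block 20 members were higher and 7 lower in lymphomas.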
